A study of Mus musculus with 32 samples.

Results

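The 8 genes described here, Id1, Id2, Id3, Msx1, Msx2, Smad6, Smad7 and Bambi, are standard transcriptional targets of bone morphogenetic protein (BMP) signalling. They were chosen by name, as 8 of the 18193 genes measured, and each was read from its brightest probe set that carries that symbol alone. BMP ligands bind pairs of serine/threonine kinase receptors, which phosphorylate SMAD1, SMAD5 and SMAD9; these join SMAD4, enter the nucleus and act on genes such as the Id family. In the mouse embryo, BMP4 and BMP8B from the extraembryonic ectoderm induce primordial germ cells (PGCs), the founders of sperm and eggs, from the epiblast. Among the targets, ID1, ID2 and ID3 are helix-loop-helix proteins that lack a DNA-binding region and hold back the E proteins, MSX1 and MSX2 are homeodomain transcription factors, SMAD6 and SMAD7 are inhibitory SMADs that feed back on the pathway, and BAMBI is a pseudoreceptor without a kinase domain.

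The study set 2 ways of making PGC-like cells (PGCLCs) from epiblast-like cells (EpiLCs) side by side, on 32 one-colour Affymetrix arrays in 16 groups of 2 biological duplicates. All lines were male and carried Blimp1-mVenus and stella-ECFP reporters; those of the 22 new arrays (C57BL/6 and 129) also carried Rosa26-rtTA. BP14A cells carried piggyBac transgenes for Blimp1, Prdm14 and Tfap2c behind the tetOx8-mCMV promoter, and received doxycycline at 1.5 μg/ml for 2 or 4 days as aggregates of 2000 EpiLCs, with no cytokine named in the protocol. BP14, P14A and P14 cells (Blimp1 with Prdm14, Prdm14 with Tfap2c, and Prdm14 alone) were taken at day 2. Ck-PGCLCs came from the parental clone without factor transgenes, after 2 or 4 days with BMP4 and BMP8A (500 ng/ml each), SCF (100 ng/ml), EGF (50 ng/ml) and LIF (1000 U/ml). Controls were cells of that clone after 2 days with doxycycline alone, called parental +Dox cells, and its EpiLCs after 36 h, the starting cells. The protocol describes aggregation of EpiLCs for all new lines, whereas one label of the parental +Dox cells calls them ESCs; their summed naive pluripotency markers were 38.2 and 42.0, against 75.3 to 78.3 in the ESCs without doxycycline. BP14A ESCs in 2i+LIF were measured without doxycycline and, sorted for stella-ECFP, after 2 days with it. The 10 earlier arrays held Ck-PGCLCs at day 6, EpiLCs after 48 h, stella-EGFP PGCs of embryonic day (E) 9.5, E5.5 epiblast and 2i+LIF ESCs, all C57BL/6, so the Ck-PGCLCs of day 6 come from another line than those of days 2 and 4. The study calls its duplicates biological without naming separate cultures or animals. A p-value here rests on how far the duplicates of a gene lie apart, pooled over all 16 groups, which may be technical. Wide duplicates in 1 group therefore widen the error of that gene in every comparison. No sort is named for the PGCLCs, and the BP14A line and the EpiLCs it is set against also differ in carrying transgenes.

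Levels below are log2 values after quantile normalization, and a level under 4.05, the 40th percentile of all values, is called dim. A gene is said to have risen or fallen only at a limma adjusted p under 0.05 (Benjamini-Hochberg over 15497 genes) and a change of at least 2-fold, which is 1 on the log2 scale. Duplicates correlated at 0.966 to 0.986 over the 15497 genes tested, and array medians before normalization lay between 4.62 and 4.78. Summed early germ cell markers (7 of 8 measured) reached 57.0 to 79.6 in the PGCLCs and PGCs of every kind, against 36.4 to 43.5 in EpiLCs of both ages and the epiblast. The ESC groups had 59.5 to 62.1, above the 57.0 and 57.2 of day 2 Ck-PGCLCs, so the sum does not separate PGCLCs from ESCs. The list also holds Blimp1 (Prdm1), Prdm14 and Tfap2c, of which BP14A, BP14, P14A and P14 cells carried 1 or more as transgenes. The 5′ minus 3′ difference of the Gapdh control probe sets, a measure of RNA quality, was below -2.5 on 6 arrays: both BP14A arrays of day 4, the first arrays of BP14 cells, 36 h EpiLCs and BP14A ESCs, and the second of BP14A ESCs with doxycycline.

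Promoter windows of 4 targets are printed because all 4 rose in day 2 Ck-PGCLCs, while only Id3 and Msx1 of them passed in parental +Dox cells, as described below. Each runs from 250 bases before to 50 after the RefSeq transcription start, on the gene's strand, in build GRCm38.p6: Id3 at chr4:136143572-136143871 (plus strand), Msx1 at chr5:37824536-37824835 (minus), Msx2 at chr13:53472731-53473030 (minus) and Smad6 at chr9:64022010-64022309 (minus). Capitals mark matches, on either strand, to GTCT (AGAC on the other strand), the core letters of a SMAD binding element, to its palindrome GTCTAGAC, and to GGCGCC, a GC-rich motif of SMAD1 and SMAD5.
Id3: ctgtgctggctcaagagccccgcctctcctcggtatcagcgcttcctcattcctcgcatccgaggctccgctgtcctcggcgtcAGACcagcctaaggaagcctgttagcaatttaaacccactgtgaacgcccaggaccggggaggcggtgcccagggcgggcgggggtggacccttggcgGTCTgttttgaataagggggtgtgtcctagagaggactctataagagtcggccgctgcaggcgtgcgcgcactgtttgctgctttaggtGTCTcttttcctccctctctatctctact
Msx1: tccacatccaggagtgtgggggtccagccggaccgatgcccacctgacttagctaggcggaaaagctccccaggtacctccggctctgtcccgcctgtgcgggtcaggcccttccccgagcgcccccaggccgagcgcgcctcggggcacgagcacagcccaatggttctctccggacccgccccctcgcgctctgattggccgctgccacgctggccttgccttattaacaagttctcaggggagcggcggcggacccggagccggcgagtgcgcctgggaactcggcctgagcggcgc
Msx2: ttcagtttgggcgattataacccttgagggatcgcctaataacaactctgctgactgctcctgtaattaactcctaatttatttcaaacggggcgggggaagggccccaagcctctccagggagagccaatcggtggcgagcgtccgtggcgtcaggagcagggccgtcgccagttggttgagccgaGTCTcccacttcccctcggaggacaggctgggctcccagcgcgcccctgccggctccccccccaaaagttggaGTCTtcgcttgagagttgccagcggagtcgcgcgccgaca
Smad6: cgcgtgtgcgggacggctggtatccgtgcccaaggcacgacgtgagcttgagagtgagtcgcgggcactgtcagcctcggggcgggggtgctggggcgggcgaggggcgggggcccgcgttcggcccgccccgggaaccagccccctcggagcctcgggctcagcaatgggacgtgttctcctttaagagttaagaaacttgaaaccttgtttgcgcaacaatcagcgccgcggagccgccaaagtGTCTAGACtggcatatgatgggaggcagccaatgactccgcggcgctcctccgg
Msx1 held none of the 3 motifs, Id3 held GTCT at 3 places and Msx2 at 2. Smad6 held the palindrome GTCTAGAC, whose first base lies at -4 from the start and which itself contains 2 GTCT matches side by side on opposite strands. GGCGCC was in none of the printed windows. Over 32851 mouse promoters of this length, 88.0% held GTCT, 11.9% GGCGCC and 0.2% GTCTAGAC, so most promoters hold GTCT. Of the 8 genes, 5 matched the RefSeq promoter table; the Id2 window held 1 GGCGCC and 1 GTCT.

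**Figure D1:**
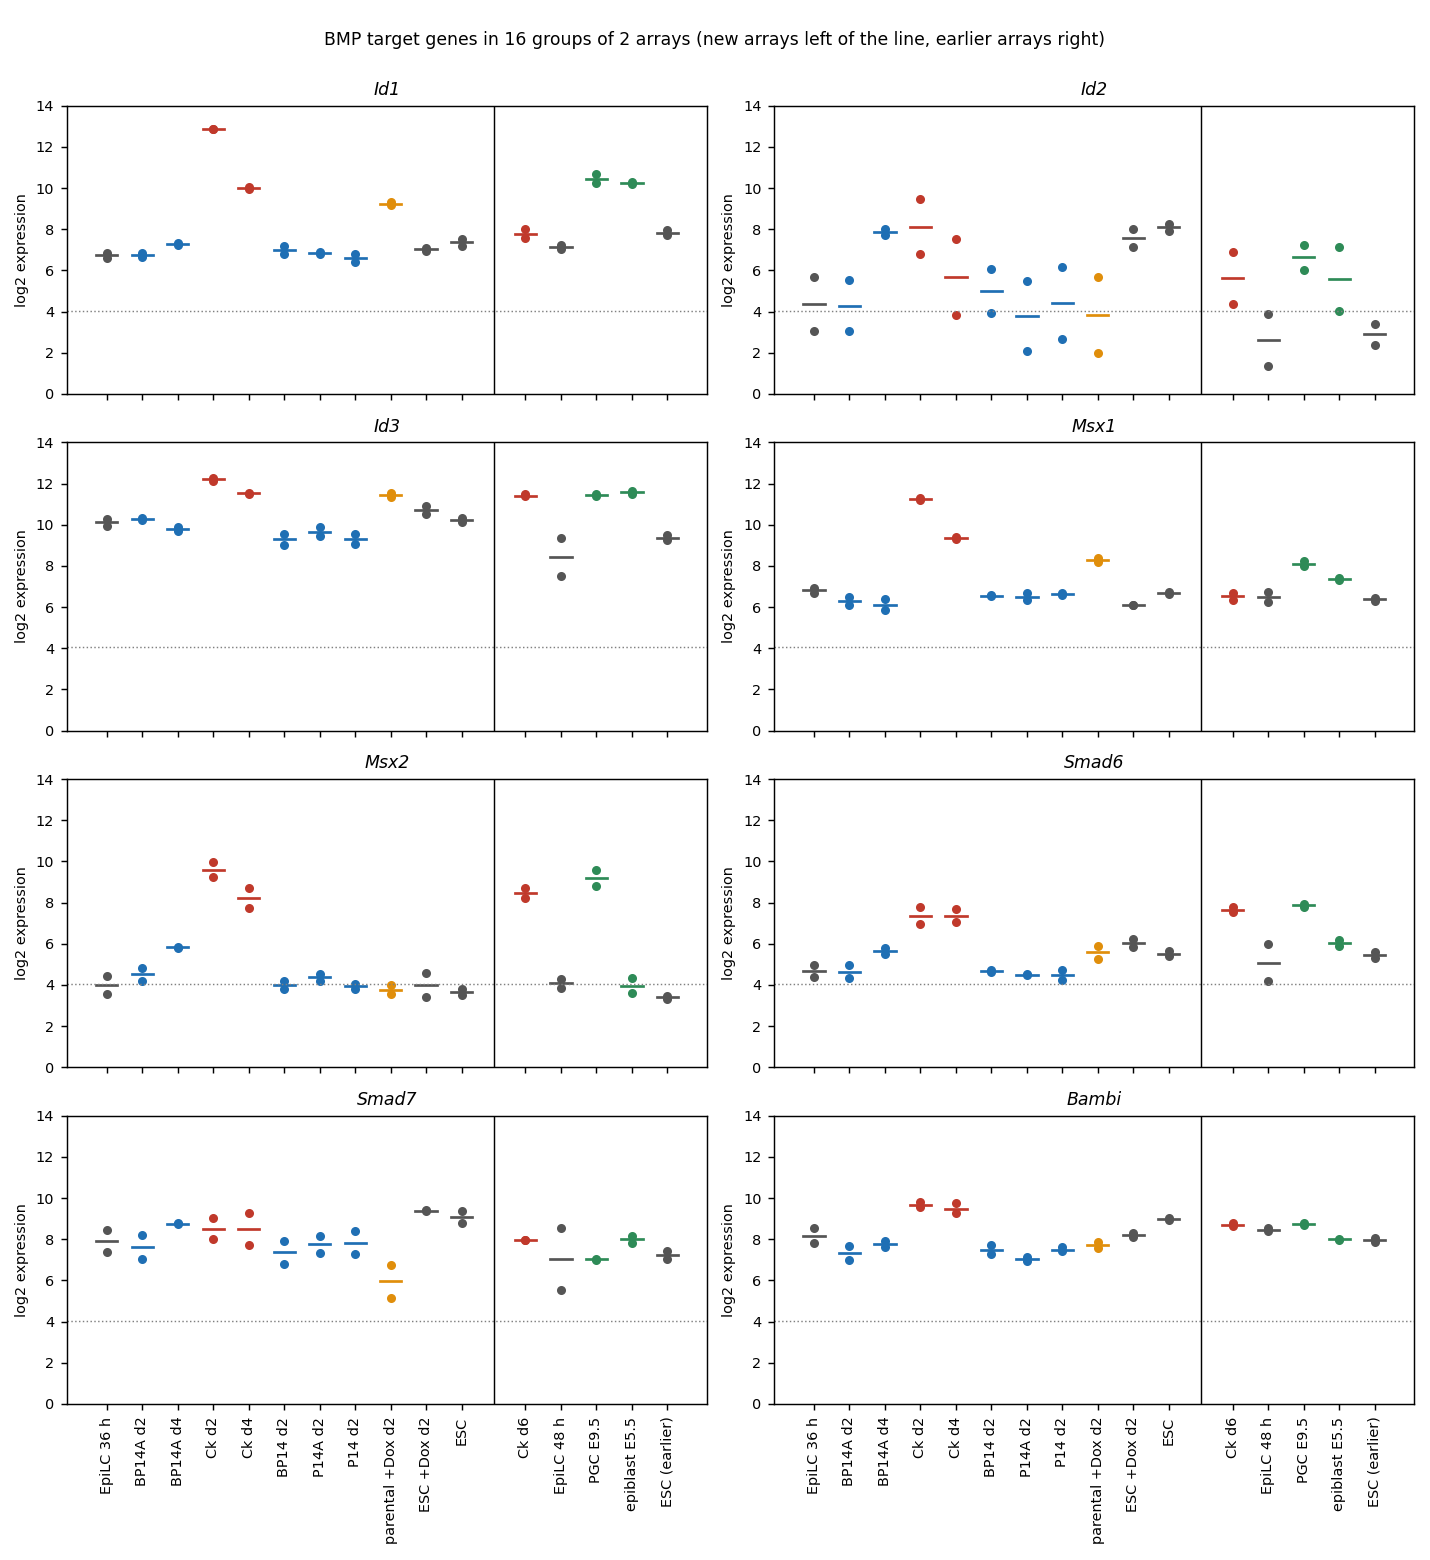
Log2 level of each target on every array (points) with the group mean (line), for the 11 groups of new arrays left of the vertical line and 5 groups of earlier arrays right of it. The dotted line is the level of 4.05 under which a gene is called dim. Id1, Id3, Msx1, Msx2 and Bambi had their highest mean in Ck-PGCLCs of day 2, while Id2 and Smad7 had wide gaps between duplicates in many groups.

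Most of the targets were higher after 2 days of cytokine induction. Against the EpiLCs they started from, 6 of 8 targets rose in day 2 Ck-PGCLCs, where 8.42% of all genes tested rose. The median change was 3.23 over the 8 targets and -0.04 over all genes. In bulk arrays, a change in the share of cells that express a gene and a change per cell cannot be told apart, here and in all results below. The comparisons with EpiLCs of Ck-PGCLCs, BP14A cells and parental +Dox cells all share the same 2 EpiLC arrays.

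Id1, on chromosome 2, rose by the largest measured amount, although the size for Msx2 depends on its dim level in EpiLCs. Id1 had 12.86 on each day 2 Ck-PGCLC array, against 6.86 and 6.62 in EpiLCs. The groups lay far apart, with a change of 6.12 ± 0.19 (SE), or 69.3-fold (adjusted p = 1.03e-13). Id3 had 12.27 and 12.14 in day 2 Ck-PGCLCs, against 10.28 and 9.95 in EpiLCs. Already high in the starting cells, it rose by 2.09 (adjusted p = 0.000224) with no overlap. Id2 had 6.78 and 9.48 in day 2 Ck-PGCLCs, against 3.04 and 5.70 in EpiLCs; the arrays did not overlap, but the change of 3.76 had a 95% interval of 0.31 to 7.22 and did not pass (adjusted p = 0.108).

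The homeobox pair followed. Msx1, which marks nascent mesoderm and many sites of BMP action, had 11.20 and 11.28 in day 2 Ck-PGCLCs, against 6.70 and 6.91 in EpiLCs. Msx2 had 9.23 and 9.95 in day 2 Ck-PGCLCs, against 3.56 and 4.42 in EpiLCs. Neither gene's groups overlapped, and Msx2 was dim on average in EpiLCs: Msx1 rose by 4.43 (adjusted p = 7.94e-12) and Msx2 by 5.6 (adjusted p = 7.22e-09). With the mean of both Msx2 probe sets, of which the second is dim throughout, the change was 2.19.

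Of the 3 feedback inhibitors, 2 rose. Smad6 had 6.95 and 7.79 in day 2 Ck-PGCLCs, against 4.38 and 4.96 in EpiLCs (change 2.70, adjusted p = 6.21e-05). Bambi had 9.55 and 9.81 in day 2 Ck-PGCLCs, against 8.54 and 7.82 in EpiLCs (change 1.50, adjusted p = 9.93e-05). Neither pair of groups overlapped. Smad7 did not pass: it had 8.02 and 9.01 in day 2 Ck-PGCLCs, against 7.38 and 8.43 in EpiLCs, with overlapping arrays and a 95% interval of -0.98 to 2.21. The first EpiLC array had one of the low Gapdh differences; without it and the other arrays of that kind the count stayed at 6.

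At day 4, 6 of 8 still stood above EpiLCs (background 9.00% of genes higher and 7.40% lower), but 3 had fallen below their own day 2 level, where 6.84% of genes fell: Id1, Msx1 and Msx2. Id1 had 9.96 and 10.06 at day 4, against 12.86 on each array at day 2, a fall of 2.85 (adjusted p = 4.71e-09). Msx1 had 9.32 and 9.41 at day 4, against 11.20 and 11.28 at day 2, and fell by 1.87 (adjusted p = 6.58e-07). Both remained above EpiLCs, by 3.27 for Id1 and 2.56 for Msx1. Msx2 had 7.73 and 8.73 at day 4, against 9.23 and 9.95 at day 2; its fall of 1.36 (adjusted p = 0.0238) did not pass without the second day 2 array (0.232) or without the first day 4 array (0.304).

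Smad6, Bambi and Id3 did not pass between the days. Smad6 had 7.05 and 7.68 at day 4, against 6.95 and 7.79 at day 2, a change of -0.01 with a 95% interval of -0.88 to 0.87. Bambi had 9.25 and 9.74 at day 4, against 9.55 and 9.81 at day 2, a change of -0.19 with an interval of -0.69 to 0.32. In both genes the arrays of the 2 days overlapped. Id3 had 11.54 and 11.51 at day 4, against 12.27 and 12.14 at day 2, a change of -0.68 that did not pass (adjusted p = 0.223) although the arrays did not overlap. Whether these genes differ from Id1 and Msx1 in their day 4 step was not tested. Against EpiLCs at day 4, Id3 (change 1.41) and Bambi (change 1.31) did not keep their calls without the second EpiLC array: Id3 had adjusted p = 0.0572, and Bambi a change of 0.95, under 2-fold.

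**Figure D2:**
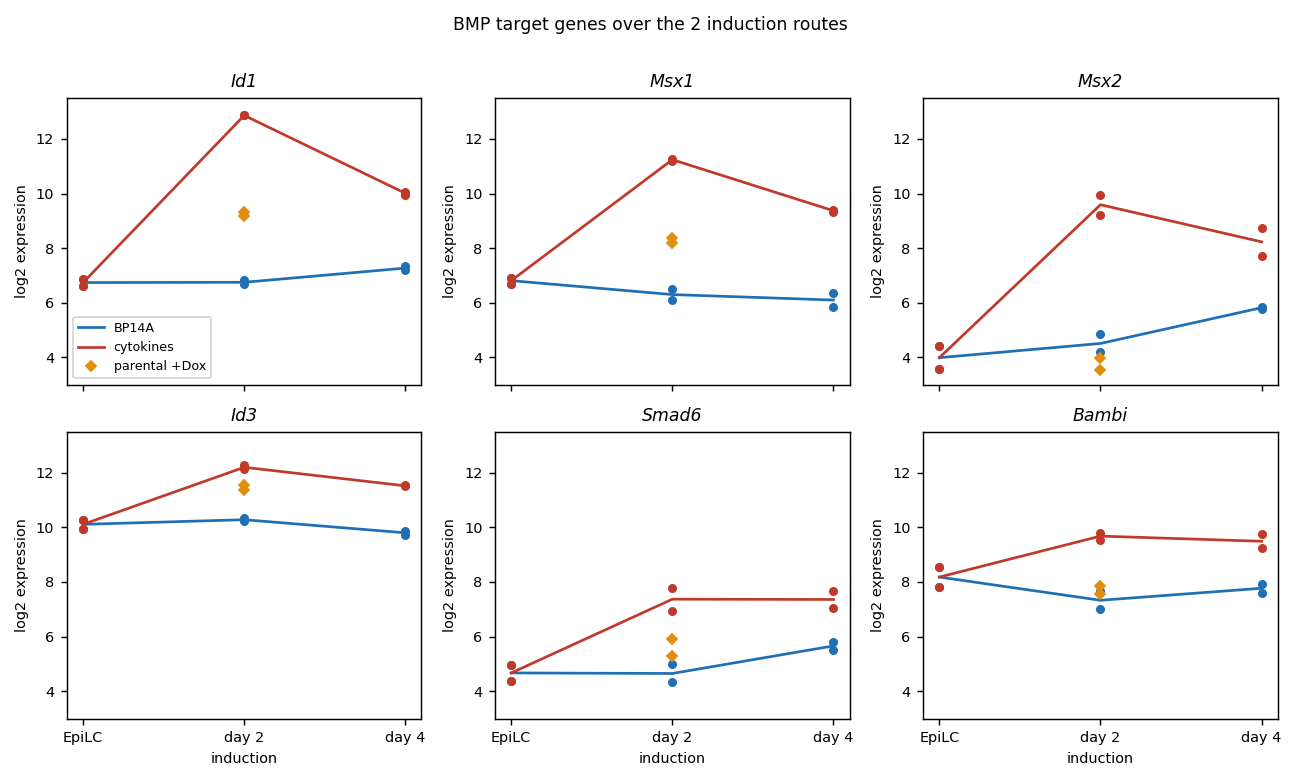
Log2 level on each array (circles) and group mean (lines) of 6 targets in EpiLCs and at days 2 and 4 of BP14A (blue) and cytokine (red) induction, with parental +Dox cells at day 2 as diamonds. The cytokine line rises by day 2 in each panel, and the BP14A line stays within 2 log2 units of the EpiLC mean throughout.

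By day 6, measured on the earlier arrays against EpiLCs of 48 h, 3 of 8 targets stood higher, where 9.26% of genes rose: Id3, Msx2 and Smad6. Msx2 had 8.20 and 8.73 in day 6 Ck-PGCLCs, against 3.87 and 4.27 in 48 h EpiLCs, a rise of 4.39 (adjusted p = 1.17e-07). Smad6 had 7.55 and 7.76 in day 6 Ck-PGCLCs, against 5.97 and 4.20 in 48 h EpiLCs, a rise of 2.57 (adjusted p = 7.87e-05). Id3 had 11.47 and 11.38 in day 6 Ck-PGCLCs, against 7.5 and 9.36 in 48 h EpiLCs, a rise of 2.99 (adjusted p = 2.82e-06). None of these overlapped, and the 48 h EpiLC duplicates differed widely in both Id3 and Smad6. Msx1 had 6.35 and 6.69 in day 6 Ck-PGCLCs, against 6.71 and 6.26 in 48 h EpiLCs, so it lay at the EpiLC level (change 0.03, 95% interval -0.37 to 0.44). Id1 had 7.99 and 7.55 in day 6 Ck-PGCLCs, against 7.02 and 7.24 in 48 h EpiLCs; the change of 0.64 was under 2-fold (adjusted p = 0.0131). The day 6 cells and those of days 2 and 4 were on separate sets of arrays and of other lines, so the step between them was not tested.

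In BP14A cells, induced by transcription factors, 0 of 8 targets passed against EpiLCs at day 2, a count near the background of 11.6% of all genes in either direction. At an unadjusted p under 0.05 there were 2, Msx1 and Bambi, both lower, where 29.8% of all genes were under it. Id1 had 6.67 and 6.83 in day 2 BP14A cells, against 6.86 and 6.62 in EpiLCs. Those arrays overlapped, and the 95% interval of the change, -0.39 to 0.40, leaves out a change of the cytokine cells' size. Smad6 had 4.32 and 4.99 in day 2 BP14A cells, against 4.38 and 4.96 in EpiLCs, with an interval of -0.89 to 0.86. Bambi had 7.67 and 7.0 in day 2 BP14A cells, against 8.54 and 7.82 in EpiLCs; its change of -0.85 was under 2-fold (adjusted p = 0.0167), and it went past 2-fold without the first BP14A array (-1.18) or the second EpiLC array (-1.21), and to -0.49 without the first EpiLC array.

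At day 4 of BP14A induction 1 of 8 targets, Msx2, stood above EpiLCs, a count near the background of 8.12% of genes. Msx2 had 5.79 and 5.84 in day 4 BP14A cells, against 3.56 and 4.42 in EpiLCs, a rise of 1.83 (adjusted p = 0.00273). The call did not hold with the mean of both probe sets (change 0.28) or without the first EpiLC array (adjusted p = 0.055). That array and both day 4 BP14A arrays had low Gapdh differences; with the first EpiLC array and the other such arrays left out and the BP14A arrays kept, the change was 1.40 (adjusted p = 0.0452). Between the days of BP14A induction 0 of 8 targets passed (background 1.43%, either direction); 4 had an unadjusted p under 0.05, all higher at day 4, where 14.6% of genes in either direction were under it. Id2 had 8.01 and 7.73 in day 4 BP14A cells, against 3.07 and 5.52 at day 2. The arrays lay apart, with a change of 3.58 and an adjusted p of 0.321.

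Set directly against cytokine cells of the same day, 6 of 8 targets were lower in BP14A cells at day 2, where 7.01% of genes were lower, and 6 of 8 at day 4 (background 2.74%). They were Id1, Id3, Msx1, Msx2, Smad6 and Bambi on both days. At day 2 the differences ran from -6.11 (Id1) to -1.92 (Id3), and none of these 6 overlapped. At day 4 they ran from -3.26 (Msx1) to -1.70 (Smad6). The Smad6 call at day 4 ended without the second BP14A array (adjusted p = 0.087) or the second Ck-PGCLC array (0.12), and that of Msx2 with the mean of both probe sets (0.189). The step between days 2 and 4 also differed by route for 3 of 8 targets, where 6.92% of genes had a lower step in cytokine cells. It was lower in cytokine than in BP14A cells by 3.37 for Id1 (adjusted p = 1.33e-07), by 1.67 for Msx1 (0.000241) and by 2.66 for Msx2 (0.00375). With the mean of both Msx2 probe sets the last did not pass (adjusted p = 0.116). These comparisons share the Ck-PGCLC and BP14A arrays.

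Summed markers of some other cell types also differed between these groups, though not in step with every target. Over the 12 measured of 13 primitive streak and mesoderm markers, the summed level was 95.2 and 99.9 in day 2 Ck-PGCLCs, with none dim, against 50.1 and 45.7 in EpiLCs. It was 46.2 and 46.5 in day 2 BP14A cells, in which 7 of the 12 were dim (Mixl1, Evx1, Lhx1, Cdx2, Hand1, Wnt3 and Fgf8), and 80.3 and 81.5 in parental +Dox cells. At day 4 it was 64.5 and 64.1 in Ck-PGCLCs and 54.2 and 50.3 in BP14A cells. Primed epiblast markers ran the other way, at 37.8 and 37.7 in day 2 Ck-PGCLCs, against 60.5 and 60.7 in EpiLCs. The 6 neural markers summed to 29.6 and 31.8 in day 2 Ck-PGCLCs, against 33.6 and 36.9 in EpiLCs. The 8 trophoblast markers summed to 66.3 and 65.6 in day 2 Ck-PGCLCs, against 41.2 and 40.3 in EpiLCs, with Cdx2 and Hand1 on both lists and 1 gene dim in Ck-PGCLCs. Of these markers Hand1 and Gata3 are also among the further BMP targets below. How much of the rise in the targets came from such cells was not tested.

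Parental +Dox cells, which carried no factor transgenes and for which no cytokine is named, had part of the set raised. Against EpiLCs, 3 of 8 targets rose, where 7.23% of genes rose. Id1 had 9.32 and 9.16 in parental +Dox cells, against 6.86 and 6.62 in EpiLCs. Msx1 had 8.38 and 8.19 in parental +Dox cells, against 6.70 and 6.91 in EpiLCs. Neither overlapped: Id1 rose by 2.50 (adjusted p = 1.05e-08) and Msx1 by 1.48 (9.82e-06). Id3 had 11.54 and 11.37 in parental +Dox cells, against 10.28 and 9.95 in EpiLCs, a rise of 1.34 (adjusted p = 0.011) that did not pass without the first parental array (0.0774) or the second EpiLC array (0.0837).

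Msx2, Smad6 and Bambi did not pass there. Msx2 had 3.55 and 3.99 in parental +Dox cells, against 3.56 and 4.42 in EpiLCs, dim or near it in both, with a 95% interval of -1.09 to 0.65 for the change. Bambi had 7.56 and 7.86 in parental +Dox cells, against 8.54 and 7.82 in EpiLCs. Smad6 had 5.28 and 5.91 in parental +Dox cells, against 4.38 and 4.96 in EpiLCs, a change of 0.93 (adjusted p = 0.121) without overlap. Smad7 had 5.14 and 6.77 in parental +Dox cells, its lowest mean of all groups, against 7.38 and 8.43 in EpiLCs (change -1.95, adjusted p = 0.0728).

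Against parental +Dox cells of the same clone and day, 5 of 8 targets were higher in day 2 Ck-PGCLCs, where 2.32% of genes were higher. Of these 2 groups only the parental cells are said to have had doxycycline, so its effect and that of the cytokines cannot be told apart. Msx2, dim in parental +Dox cells, was 5.82 higher in day 2 Ck-PGCLCs (adjusted p = 2.35e-08), Id1 3.62 (4.89e-10), Msx1 2.95 (6.69e-09), Bambi 1.97 (2.22e-05) and Smad6 1.77 (0.0128). None of the 5 overlapped. The Smad6 call ended without the first parental array (adjusted p = 0.181) or the second Ck-PGCLC array (0.222). Id3, high in both at 12.27 and 12.14 in Ck-PGCLCs and 11.54 and 11.37 in parental +Dox cells, differed by 0.75 (95% interval -0.01 to 1.52, adjusted p = 0.335).

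Id1, Id3 and Msx1 were lower in the cells of all 4 factor combinations than in parental +Dox cells. The lower calls numbered 3 of 8 in each, beside 7.25% of all genes for BP14A cells, 6.43% for BP14 cells, 6.81% for P14A cells and 6.60% for P14 cells, and the 4 comparisons share the parental arrays. With Prdm14 alone, P14 cells had Id1 at 6.42 and 6.79, against 9.32 and 9.16 in parental +Dox cells, a difference of -2.64 (adjusted p = 3.94e-09). Id1 had 6.82 and 7.17 in BP14 cells and 6.88 and 6.81 in P14A cells, so all 8 factor arrays lay below both parental ones, and it was lower by 2.49 in BP14A, 2.25 in BP14 and 2.40 in P14A cells. The P14 arrays had Msx1 at 6.68 and 6.60, against 8.38 and 8.19 in parental +Dox cells, and its differences ran from -1.98 in BP14A to -1.65 in P14 cells. For Id3 the P14 arrays had 9.56 and 9.07, against 11.54 and 11.37 in parental +Dox cells, a difference of -2.14 (adjusted p = 0.000191). In BP14A cells the Id3 difference was -1.17 (adjusted p = 0.0245), and the call ended when any of the 4 arrays was left out (0.0707 to 0.135). No factor array overlapped a parental array in these 3 genes. They are also the 3 targets that rose in parental +Dox cells against EpiLCs. The EpiLC means were 6.74 for Id1, 6.81 for Msx1 and 10.11 for Id3. Means of the day 2 factor cells ran from 6.60 to 6.99 for Id1, 6.30 to 6.64 for Msx1 and 9.29 to 10.28 for Id3. BP14, P14A and P14 cells were not tested against EpiLCs. No target had a Blimp1 effect that passed as different with and without the Tfap2c transgene (0 of 8, with 0 at an unadjusted p under 0.05; 0.0258% of genes passed, and 3.72% were under the unadjusted 0.05).

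**Figure D3:**
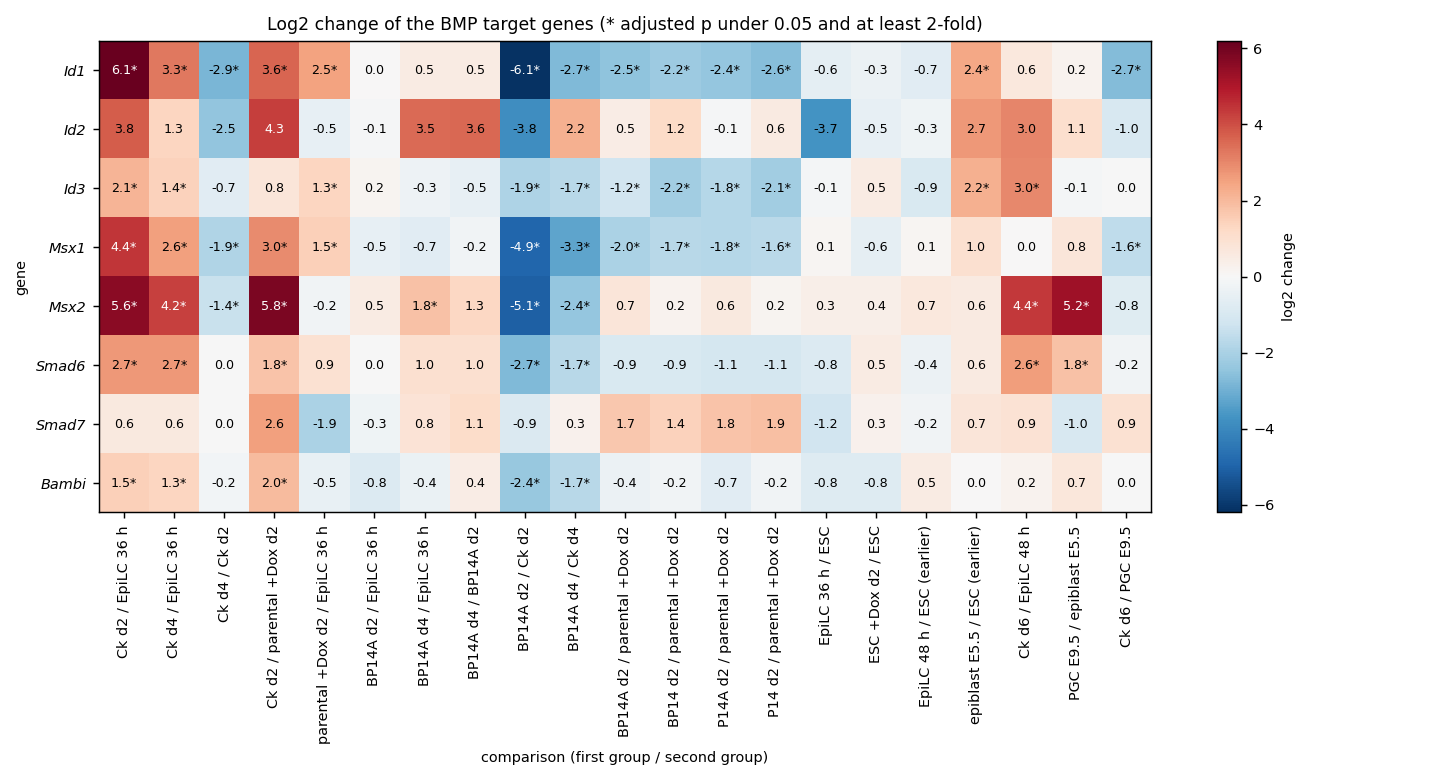
Log2 change of each target (rows) in the 21 comparisons (columns, first group over second), with a star where the gene passed. Red is higher in the first group and blue lower. In the first column, day 2 Ck-PGCLCs over EpiLCs, the changes are 6.12 for Id1, 5.6 for Msx2 and 4.43 for Msx1; the Id2 and Smad7 rows carry no star.

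Other genes of the pathway were read from lists of 59 genes, 56 of them measured and 51 tested. Of 8 BMP ligands tested, 2 rose and 1 fell in day 2 Ck-PGCLCs against EpiLCs, where 8.42% of all genes rose and 6.06% fell. Bmp4 itself had 10.52 and 10.76 in day 2 Ck-PGCLCs, against 6.95 and 6.58 in EpiLCs (change 3.87, adjusted p = 3.1e-09). Its groups lay well apart, and at day 4 it had 6.83 and 7.43, a fall of 3.51 against day 2. In parental +Dox cells 2 of 8 rose and 1 fell, where 7.23% of all genes rose and 5.63% fell. Bmp7 rose by 2.02 and Bmp2, dim in EpiLCs, by 2.57, while Bmp8b, dim in parental +Dox cells, was lower by 1.49. Bmp2 was lower in all 4 kinds of factor cells, in each of which it was dim, than in parental +Dox cells. It was also lower in day 2 Ck-PGCLCs than in parental +Dox cells (change -1.70, adjusted p = 0.00469). Bmp7 rose in BP14A cells too, by 1.86 at day 2 against EpiLCs.

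Among the extracellular inhibitors and modulators, 3 of 9 tested rose in day 2 Ck-PGCLCs against EpiLCs (background 8.42%). Bmper, which binds BMPs outside the cell, had 7.88 and 8.24 in day 2 Ck-PGCLCs, against 3.35 and 3.31, dim, in EpiLCs. Fst, which codes for follistatin, an activin and BMP antagonist, had 11.25 and 11.35 in day 2 Ck-PGCLCs, against 8.07 and 7.83 in EpiLCs, and 12.08 and 12.18 in parental +Dox cells. The Bmper and Fst groups did not overlap, and Bmp1 was the last of the 3. In parental +Dox cells 4 of 9 rose against EpiLCs (background 7.23%), among them Fst by 4.18, the BMP antagonist Chrd by 2.98 and Bmp1 by 2.63. Fst was lower in each kind of factor cells, in all of which its mean was dim, than in parental +Dox cells. In day 2 BP14A cells, at 3.53 and 3.69, it was also lower than in EpiLCs. At the receptors 0 of 7 passed in day 2 Ck-PGCLCs against EpiLCs, near the background of 8.42% of all genes higher and 6.06% lower. Of the 4 signalling SMADs, Smad1 rose by 1.56 (adjusted p = 0.000486). None of the 3 E protein genes, whose products ID proteins bind, passed there, also near that background.

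Of 10 other BMP targets tested, 8 rose in day 2 Ck-PGCLCs against EpiLCs (background 8.42%), among them Hand1 (6.38), Gata3 (6.35) and Id4 (4.09), whose sizes depend on dim levels in EpiLCs. In day 2 BP14A cells 4 of 10 rose against EpiLCs, where 6.25% of all genes rose. Id4, the remaining ID gene, had 6.98 and 8.03 in day 2 BP14A cells, against 3.53 and 4.35 in EpiLCs (change 3.57, adjusted p = 3.05e-06). Gata2 and Hey1 rose by 3.27 each, with Gata2 and Id4 dim on average in EpiLCs. Set against cytokine cells of the same day, these 3 did not pass: for Id4, the difference between BP14A cells and Ck-PGCLCs was -0.52 (95% interval -1.38 to 0.34), for Gata2 -0.69 (-1.47 to 0.09) and for Hey1 0.22 (-0.32 to 0.76). Hand1, a transcription factor of mesoderm and trophoblast, had 3.32 and 2.8 in day 2 BP14A cells, against 9.78 and 9.98 in day 2 Ck-PGCLCs, dim in the first and high in the second. Tbx3 (-3.57) and Gata3 (-4.79, dim in BP14A cells) were also lower in BP14A cells.

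**Figure D4:**
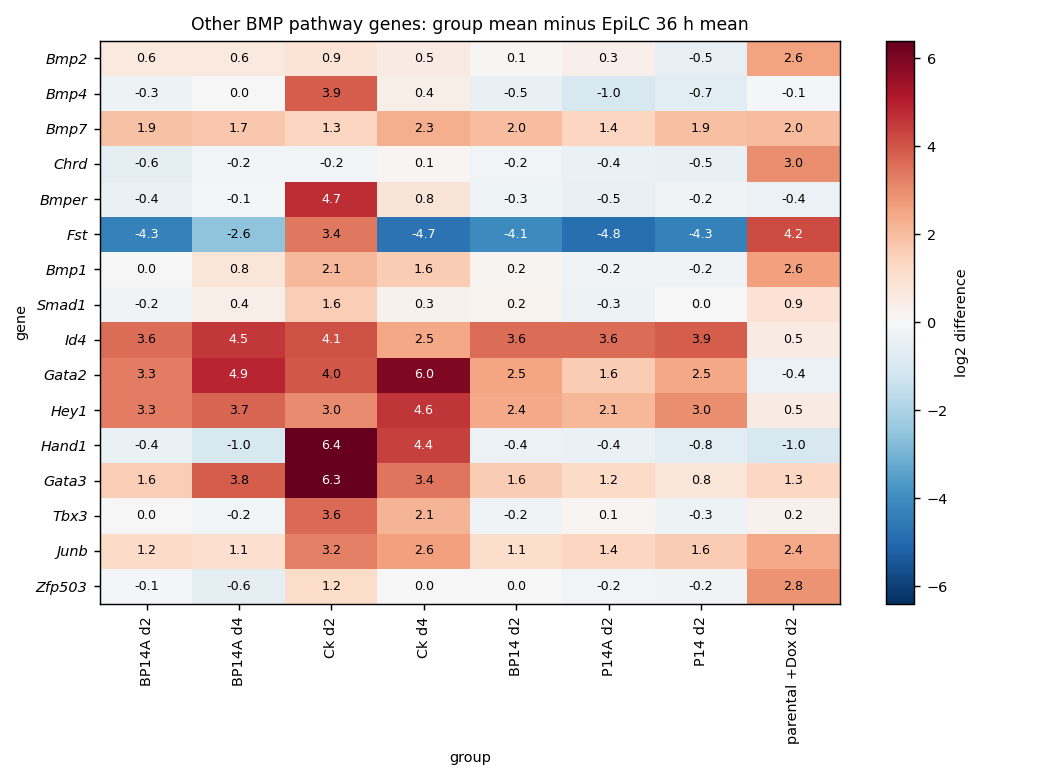
Group mean minus the EpiLC 36 h mean (log2, in each cell) of 16 BMP pathway genes named by rule in the text or in one of these comparisons (rows) for 8 groups (columns). Id4, Gata2 and Hey1 are above EpiLCs in factor and cytokine cells, while Bmp4, Bmper, Hand1 and Tbx3 have their highest value in day 2 Ck-PGCLCs and lie at or below EpiLCs, or barely above, in factor cells.

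E5.5 epiblast had higher Id1 and Id3 than 2i+LIF ESCs, 2 of 8 targets, where 7.58% of genes were higher. Id1 had 10.30 and 10.20 in epiblast, against 7.94 and 7.72 in ESCs (change 2.42, adjusted p = 8.46e-09). Id3 had 11.49 and 11.64 in epiblast, against 9.49 and 9.25 in ESCs (change 2.20, adjusted p = 0.000102). Neither overlapped. Between E9.5 PGCs and the epiblast, 2 of 8 rose, Msx2 and Smad6, where 8.90% of genes rose. Msx2 had 8.82 and 9.60 in PGCs, against 3.60 and 4.32 in epiblast, a rise of 5.25 (adjusted p = 1.14e-08) over a dim epiblast mean. Smad6 had 7.94 and 7.80 in PGCs, against 6.18 and 5.87 in epiblast, a rise of 1.84 (adjusted p = 0.00218). Both pairs of groups lay apart, while Id1 had 10.70 and 10.23 in PGCs, against 10.30 and 10.20 in epiblast, with overlap (change 0.21).

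Day 6 Ck-PGCLCs differed from embryonic PGCs in 2 of 8 targets, both lower, where 3.46% of genes were lower. Id1 had 7.99 and 7.55 in day 6 Ck-PGCLCs, against 10.70 and 10.23 in PGCs, a difference of -2.69 (adjusted p = 2.35e-08). Msx1 had 6.35 and 6.69 in day 6 Ck-PGCLCs, against 7.99 and 8.24 in PGCs, a difference of -1.59 (adjusted p = 1.06e-05). The groups of both genes were separate. Id3 differed by -0.01 (95% interval -0.77 to 0.76) and Smad6 by -0.22 (interval -1.09 to 0.66), neither of which passed. Bmp4 had 8.82 and 9.25 in day 6 Ck-PGCLCs, against 7.34 and 7.15 in PGCs, and was higher by 1.78. Some markers of other cell types were also higher in PGCs. Fibroblast markers summed to 45.9 and 39.9 there, against 33.0 and 34.9 in day 6 Ck-PGCLCs and 35.9 and 34.0 in epiblast. Neural markers, at 47.5 and 39.3, were above both groups too. Primitive streak and mesoderm markers, at 62.3 and 56.7, overlapped day 6 Ck-PGCLCs and lay below epiblast. How much of the PGC differences from either group came from other cell types was not tested.

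No target passed in the 3 comparisons among cultured ESCs and EpiLCs. In 36 h EpiLCs against BP14A ESCs 0 of 8 passed (background 14.6% in either direction), with 3 at an unadjusted p under 0.05, Id1, Id2 and Bambi, all lower, where 34.2% of genes were under it. In BP14A ESCs with doxycycline against those without, 0 of 8 passed (9.41%), with Msx1 and Bambi lower at an unadjusted p under 0.05 (26.8% of genes). In 48 h EpiLCs against ESCs of the earlier arrays 0 of 8 passed (14.4%), with Id1 and Id3 lower at an unadjusted p under 0.05 (34.7%). Id1 had 6.86 and 6.62 in 36 h EpiLCs, against 7.20 and 7.51 in BP14A ESCs, a small separation of -0.61 (adjusted p = 0.0214).

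The orders below put new and earlier arrays together, and between those sets cell state cannot be told apart from array set and line. Ordered by group mean, Id1 ran from 12.86 in day 2 Ck-PGCLCs through 10.46 in PGCs, 10.25 in epiblast, 10.01 in day 4 Ck-PGCLCs and 9.24 in parental +Dox cells to 7.83 and below in the other 11 groups. Between neighbours in that order, PGCs and epiblast overlapped, and the gap of 1.41 below parental +Dox cells was clear of overlap. Msx1 led with day 2 and day 4 Ck-PGCLCs (11.24 and 9.37), then parental +Dox cells (8.29) and PGCs (8.11), which overlapped, and epiblast (7.35); the other 11 groups lay between 6.10 and 6.81. Msx2 was highest in day 2 Ck-PGCLCs (9.59) and PGCs (9.21), which overlapped, followed by day 6 (8.46) and day 4 (8.23) Ck-PGCLCs, also overlapping. Day 4 BP14A cells stood alone at 5.82, and 8 of 16 groups were dim. Smad6 had its top 4 in PGCs (7.87) and Ck-PGCLCs of day 6, 2 and 4 (7.65, 7.37 and 7.36), 1.32 above the next group. For Id3, day 2 Ck-PGCLCs (12.20) stood above 5 groups between 11.42 and 11.57 whose neighbours all overlapped. Bambi spanned 2.65 from 9.68 in day 2 Ck-PGCLCs to 7.03 in P14A cells, with 11 of 15 neighbouring pairs overlapping.

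Over the 16 group means, which share normalization and span both array sets, Id1 went most closely with Msx1 (Pearson r = 0.91) and Msx2 with Smad6 (0.87), while Id1 and Smad7 had r = -0.04. Outside the set, the genes with the most similar group means over 16 groups were Cdx2 for Id1 (r = 0.929), Tmem176a for Msx1 (0.933), Sct for Msx2 (0.963), Abl1 for Smad6 (0.922), Numb for Id2 (0.887), Polr2b for Id3 (0.862) and Ccs for Smad7 (0.835). For Bambi it was Bambi-ps1 (0.889), a pseudogene copy whose probes may share its transcript.

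Id2 and Smad7 could hardly be ranked, because their duplicates lay far apart. The array numbered 2 was the higher of the duplicates in 13 of 16 groups for Id2 and in 11 for Smad7. For Id2 the gap between array 2 and array 1 had a median of 2.49 and ran from -2.5 to 3.71; for Smad7 it had a median of 0.61 and ran from -3.0 to 1.63. Over the 16 groups the gaps of Id2 and Smad7 correlated at 0.86, as did those of Smad6 and Smad7. Smad7 ranged from a mean of 9.39 in BP14A ESCs with doxycycline to 5.96 in parental +Dox cells, with 13 of 15 neighbouring pairs overlapping. In all 15 neighbouring pairs of its order Id2 overlapped, and 4 of its group means were dim. Id2 had its highest means in day 2 Ck-PGCLCs (8.13), BP14A ESCs (8.09) and day 4 BP14A cells (7.87), all on new arrays. The 2i+LIF ESCs of the earlier arrays had an Id2 mean of 2.89. For Smad7 the means were 9.10 in BP14A ESCs and 7.25 in the earlier ESCs. The 3 Id2 probe sets did not all agree: against the one used, 1 had r = 0.91 over the groups and the other -0.16. The latter was dim in every group, with means from 1.34 to 3.19. The widest Smad7 gap was in 48 h EpiLCs, at 8.55 and 5.55, the group in which Id3 and Smad6 also parted most; what sets those arrays apart was not tested.

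**Figure D5:**
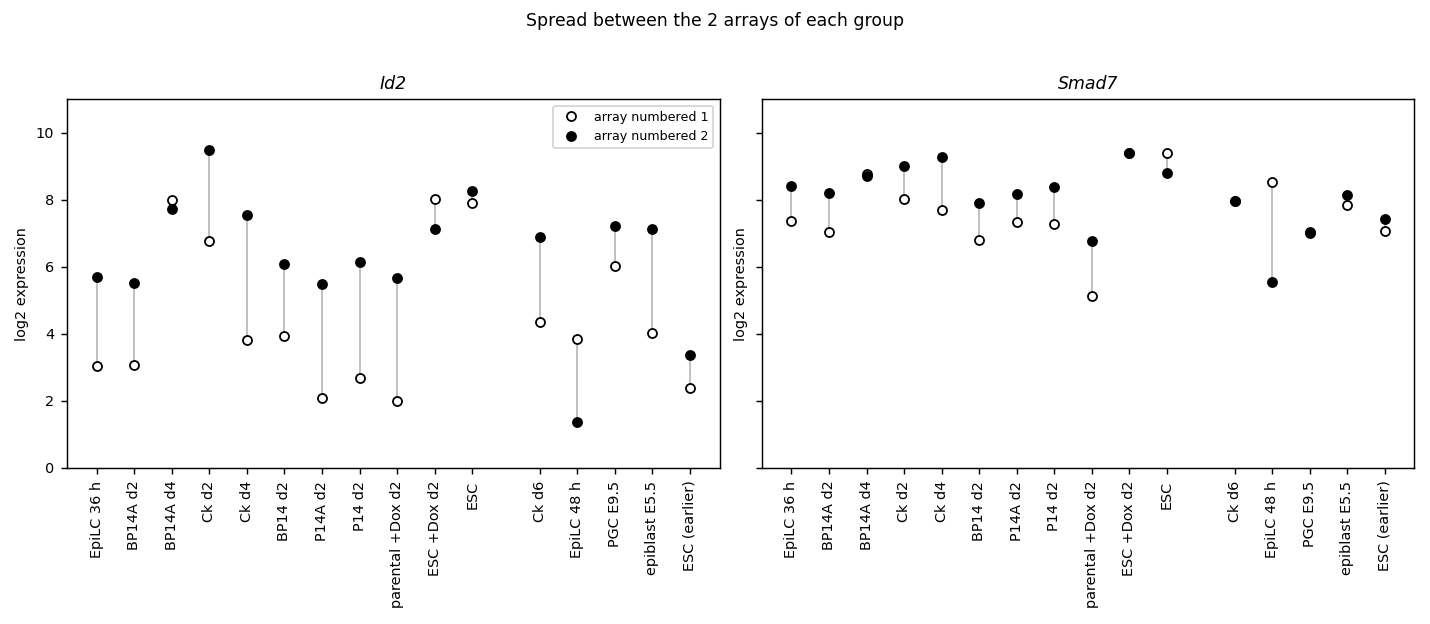
Log2 level of Id2 and Smad7 on the arrays numbered 1 (open) and 2 (filled) of each of the 16 groups, joined by a line. The filled point is the upper in 13 groups for Id2 and in 11 for Smad7.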

How the data were processed

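Per the labels' protocols, cDNA of about 20000 cells was amplified and hybridised to Affymetrix mouse arrays. The authors' deposited values are log2 values, 1 per probe set and array, from 0 to 14.59; their scale was inferred from that range. The sources used here name no summarisation software. The 64 control probe sets were left out of 45101, and the rest were quantile normalized over all 32 arrays. Of 35877 annotated probe sets, 34945 named 1 gene symbol (34741 matched RefSeq), 932 several, and 9160 probe sets were not listed. Each of 18193 genes took its brightest probe set, and 15497 with at least 1 group mean at the 40th percentile (4.05) were tested. One limma model (3.58.1, R 4.3.3) had a mean per group and 16 residual degrees of freedom, and was tested on simulated data. Error terms are standard errors of the fit, and the number of arrays limits precision. The 8 targets, the other lists (up to 3 named per list and comparison, by size of change among genes that passed) and the comparisons were chosen with earlier results of these data known. Figures and promoter searches used Python 3 with matplotlib and pandas. Alternatives changed the normalization, probe set, filter, fit, arrays, threshold and block.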

Additional observations from a re-analysis of the deposited data

Results flagged for a closer look

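The step between days 2 and 4 differed between the cytokine and BP14A routes in 3 of the 8 BMP targets, by an interaction term in the limma fit. The cytokine step minus the BP14A step was -3.37 for Id1 (adjusted p = 1.33e-07), -1.67 for Msx1 (adjusted p = 0.000241) and -2.66 for Msx2 (adjusted p = 0.00375). Id1 fell by 2.85 between the days in Ck-PGCLCs and had a change of 0.52 in BP14A cells. The routes differed already at day 2, where BP14A cells lay near the EpiLC level. Day 2 means of Id1 were 12.86 in Ck-PGCLCs and 6.75 in BP14A cells, beside 6.74 in EpiLCs. For Msx1 they were 11.24 and 6.30, beside 6.81, and for Msx2 9.59 and 4.51, beside 3.99. The Gapdh 5′ minus 3′ difference was -4.66 and -2.99 on the BP14A arrays of day 4, low among all arrays, and its part in the result was not tested. Groups of 2 arrays are too small for a test of a single outlying array.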

How the results depend on the processing

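Of the recomputed counts of targets, 364 stayed within 1.5 times the main count and 21 did not; single genes gained a call 41 times and lost one 27 times, and none reversed. With no fold limit, the count was 1 in BP14A cells of day 2 and 3 in those of day 4 against EpiLCs, 2 in EpiLCs against BP14A ESCs, 2 in those ESCs with doxycycline, 1 in 48 h EpiLCs against ESCs and 4 in PGCs against epiblast. BP14A cells of day 4 against EpiLCs gave 0 with the mean of all probe sets, 0 with the second brightest probe set (an alternative chosen after seeing the data), and 2 with only the groups compared, where day 6 Ck-PGCLCs against PGCs gave 1 (Msx1 lost, adjusted p = 0.0552). That fit also ended the calls of Smad6 in day 2 Ck-PGCLCs against parental +Dox cells (0.0633), Msx2 between days 4 and 2 (0.0897) and Bambi in day 4 Ck-PGCLCs against EpiLCs (0.0505). The deposited values gave 1 in 48 h EpiLCs against ESCs. Counts that moved by 1.5 times or less are not listed. Such moves arose in comparisons of Ck-PGCLCs and of parental +Dox cells when single arrays were left out. Without arrays of low Gapdh difference, also chosen after seeing the data, EpiLCs against BP14A ESCs gave 1. Leaving out each array in turn, with the lone array assumed to vary like the others, gave 0 to 1 in BP14A cells of day 2 and of day 4 against EpiLCs, 0 to 1 in EpiLCs against BP14A ESCs and 0 to 1 in 48 h EpiLCs against ESCs.

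Deviations of same-numbered arrays correlated at -0.09 to 0.46 (median 0.14, over 0.1 in 13 of 21 comparisons), and no label says that a number marks a batch. With the replicate number as a block, the count was 2 in BP14A cells of day 4 against EpiLCs, 1 between days 4 and 2 of BP14A induction (Msx2) and 1 in EpiLCs against BP14A ESCs (Id2). Id2 also passed in day 2 Ck-PGCLCs against EpiLCs (adjusted p = 0.0254) and parental +Dox cells (0.0403), in day 2 BP14A cells against Ck-PGCLCs (0.0265) and in the difference between routes (0.0197), as did Smad7 in Ck-PGCLCs against parental +Dox cells (0.0484). The block changed no other call among the targets.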

Other observations

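Of 10 intracellular BMP regulators tested, 1 rose in day 2 Ck-PGCLCs against EpiLCs (background 8.42% of all genes), Nedd4l, a ubiquitin ligase (9.90 and 9.81, against 8.73 and 8.22; change 1.37, adjusted p = 0.00268). At day 4, 4 of 10 stood lower than EpiLCs, where 7.40% of all genes were lower, and none higher. Nedd4l had 6.33 and 6.43 at day 4, against 9.90 and 9.81 at day 2, a fall of 3.47 (adjusted p = 1.47e-07). Tob1, which codes for an antiproliferative protein that represses SMAD activity, was lower by 1.21 in day 4 Ck-PGCLCs than in EpiLCs (adjusted p = 0.00763), and higher by 1.48 in day 4 BP14A cells than in day 4 Ck-PGCLCs (0.00503).

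Among the 7 receptors tested, Bmpr1a, a type I BMP receptor, had 9.19 and 9.37 in day 4 Ck-PGCLCs, against 10.48 and 10.22 at day 2, a fall of 1.07 (adjusted p = 0.000835). In embryonic PGCs against epiblast, 4 of 10 other BMP targets rose (background 8.90%), with Gata2 at 9.05 and 9.35 in PGCs, against 5.04 and 4.70 in epiblast (change 4.33), Hey1 higher by 3.39 and Id4 by 2.58. None of the 7 receptors rose there, near the background of 8.90% of all genes.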
